A study of Rattus norvegicus with 6 samples.

Results

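The proteasome is the large protease that breaks down proteins tagged with ubiquitin, and the subunits described here are the genes whose symbols run from Psma and Psmb (core) through Psmc and Psmd (regulatory cap) to Psme and Psmf (activators and an inhibitor). A probe set, the group of short probes that measures a transcript on the array, was taken as a member where the platform annotation gave it a single symbol of that form with a number. This selected 37 genes of 10412 named on the array, measured by 40 of its 15923 probe sets. Another 6 probe sets carry a proteasome symbol together with other symbols, among them those for Psmb6 and Psme3, and were left out. The rule uses symbols and no measured value, though it was set with earlier results of these data known.

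The data are from 3 male Wistar rats, aged 8 weeks, numbered 4, 5 and 6. In each rat the peroneal nerve, which supplies the tibialis anterior muscle of the lower leg, was cut and its end sewn to the biceps femoris, and the stumps were joined again after 4 weeks. The rats then lived for 8 weeks, a time the labels give without its starting point and which is read here as following the repair. Total RNA of the ipsilateral muscle (operated side) and of the contralateral muscle (other side) of each rat was measured on 1 array per muscle, 6 arrays in all, 3 per group. Surgery was done under ketamine and xylazine, and the contralateral muscle also comes from an operated animal, so no muscle of an unoperated rat enters the comparison. Both muscles are whole tissue.

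In the core particle, rings of alpha subunits gate a chamber lined by beta subunits, of which a few cut proteins. The regulatory particle caps the core: its ATPase ring unfolds substrates and threads them inward, and its non-ATPase subunits bind and remove ubiquitin. In place of that cap the core can take the activators PA28 (Psme1 with Psme2) or PA200 (Psme4). Interferon gamma induces PA28 and the immunoproteasome subunits Psmb8, Psmb9 and Psmb10, which replace the constitutive catalytic beta subunits and favour peptides for MHC class I. In skeletal muscle the ubiquitin-proteasome system breaks down myofibrillar protein, and transcripts of its subunits are known to increase during atrophy after denervation.

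Medians of the arrays lay between 60.2 and 66.6 intensity units. Actin's 3' probe set was divided by its middle one as a measure of RNA integrity. By this ratio contralateral 4 and ipsilateral 6 stood apart, with 2.77 and 2.87 against 1.36 to 1.68 on the other 4. The same ratio for Gapdh was 1.02 to 1.21 on all 6 arrays and set neither apart. The Cre spike control was lower on both arrays of animal 4 (1117 and 1476) than on those of animals 5 and 6 (2481 to 3605). The muscle markers Ckm and Actn3 were bright on every array, as the labelled tissue has them. Ckm was at 7326 ± 812 contralaterally and 6166 ± 432 ipsilaterally (SD, n = 3), and Actn3 at 7252 ± 788 and 5198 ± 660. Of 9519 probe sets tested, 0% passed an adjusted p of 0.05, while 3.57% were higher and 2.78% lower ipsilaterally at an unadjusted p under 0.05. The number of arrays limits the precision.

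The transcripts of the proteasome differed little between the repaired and the contralateral muscle. All 40 member probe sets passed the filter on dim signals, with mean intensities from 92.8 to 2053. Differences are log2 of ipsilateral over contralateral intensity within an animal, after 15.8 was added to every intensity, and their standard error (SE) comes from limma's paired fit over 3 animals. This scale understates differences of dim probe sets. They ran from -0.54 (Psme2) to 0.33 (a probe set of Psme4), and 38 of the 40 were smaller than 0.3 in size, as were 86.0% of all tested probe sets. In limma's fit no member passed the Benjamini-Hochberg adjustment, made over the whole set of tested probe sets (lowest adjusted p = 0.545). At an unadjusted p under 0.05 there was 1 lower member, Psme2, and 0 higher ones, shares no larger than those of all probe sets above. For 36 of the 40 the 95% interval of the difference lay within 1.5-fold in either direction, which is 0.58 on the log2 scale. The other intervals, of Psma2, Psma7, Psme2 and 1 probe set of Psme4, reached past it.

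**Figure D1:**
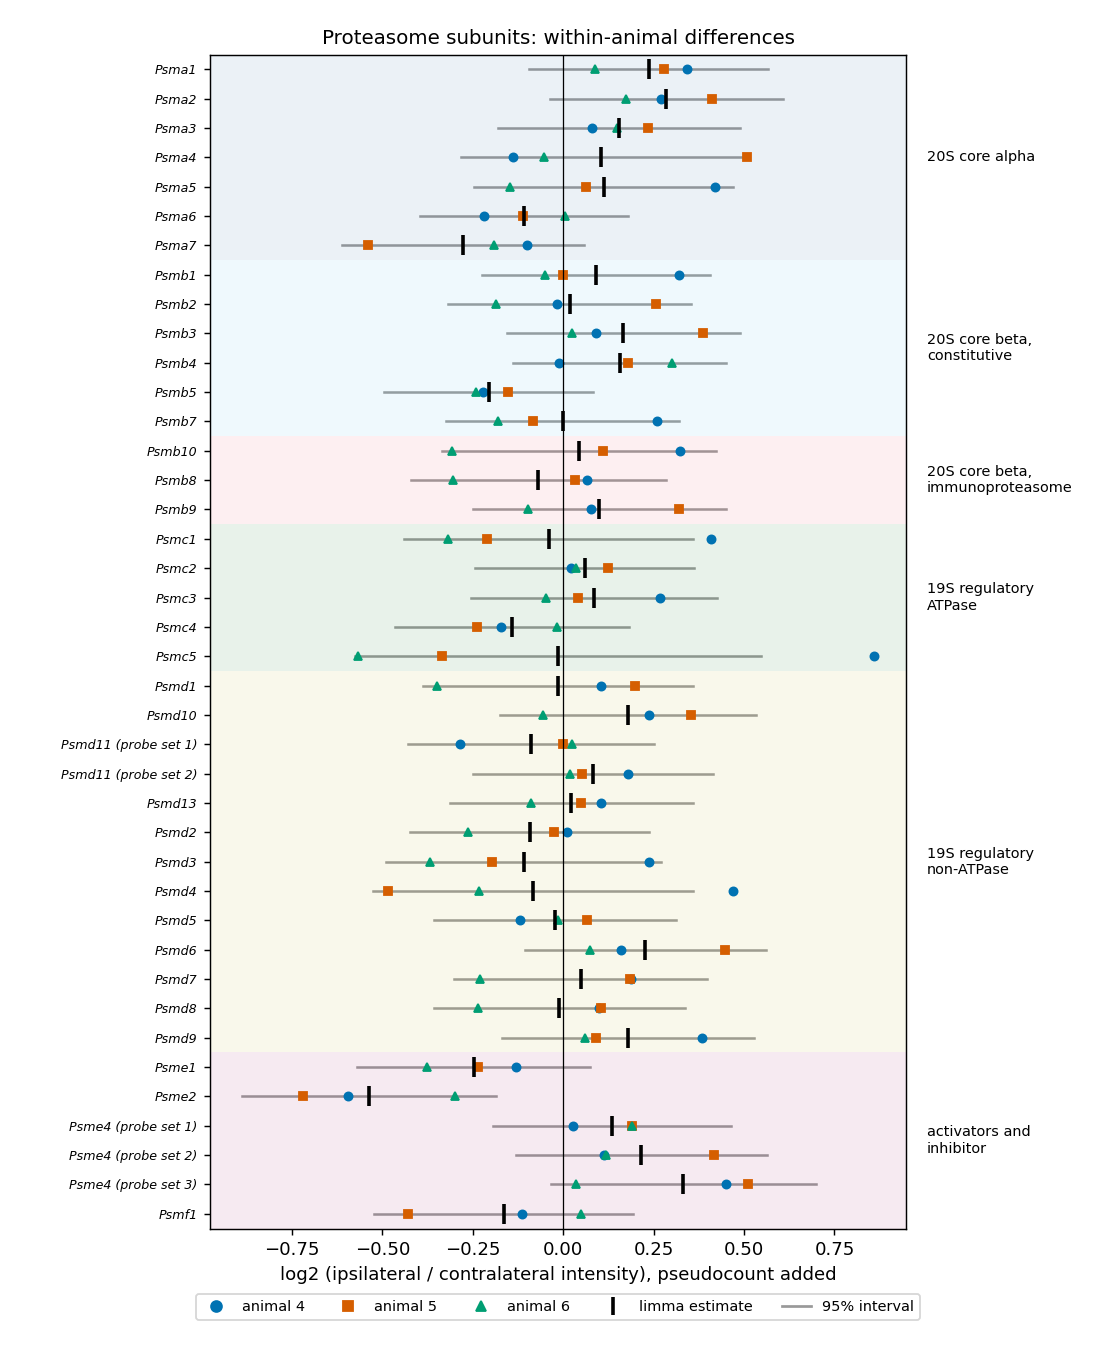
Within-animal log2 differences, ipsilateral over contralateral, of all 40 member probe sets, ordered by particle. Coloured points are the 3 animals, the black bar is limma's estimate and the grey line its 95% interval; only the interval of Psme2 lies wholly on 1 side of 0. Where a gene has several probe sets they are numbered from the brightest.

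The lowest unadjusted p among the members was that of Psme2. With the product of Psme1 its product builds the PA28 activator, a ring that opens the core's gate without ubiquitin. Psme2 had contralateral intensities of 453, 499.7 and 527 (animals 4, 5 and 6) and ipsilateral ones of 294, 297 and 426. Every ipsilateral array was below every contralateral one, which also held for 5.78% of all tested probe sets. The difference was -0.54 (SE 0.16, 95% interval -0.89 to -0.19, limma unadjusted p = 0.00703, adjusted p = 0.545), or 0.689-fold, with -0.60, -0.72 and -0.30 in animals 4, 5 and 6. By unadjusted p it stood at rank 117 of the 9519 probe sets. Without animal 5 the difference was -0.45 (limma unadjusted p = 0.0728). Over all alternatives the adjusted p ran from 0.144 to 0.99992.

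Its partner Psme1 was also lower in all 3 animals. Its contralateral intensities were 757, 828 and 1060.2 in animals 4, 5 and 6, and its ipsilateral ones 691, 701 and 812. The groups overlapped, since ipsilateral 6 was above contralateral 4. The difference was -0.25 (SE 0.14, 95% interval -0.57 to 0.07, limma adjusted p = 0.795), with -0.13, -0.24 and -0.38 in the 3 animals. Psme1 and Psme2 thus had the same sign in every animal, but animal 6 had the value farthest from 0 for Psme1 and the one nearest to 0 for Psme2.

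In RefSeq's assembly GRCr8 Psme1 and Psme2 lie close together on chromosome 15, separated by Emc9 and followed by Rnf31 and Irf9. Their promoters and those of the 3 immunoproteasome subunits are shown because these 5 genes are known to share induction by interferon gamma. Each stretch runs from 100 bases before to 30 bases after the annotated start of the gene, 5′ to 3′ on its own strand, at chr15:33038871-33039000 (plus strand) for Psme1, chr15:33052722-33052851 (minus) for Psme2, chr20:4657002-4657131 (minus) for Psmb8, chr20:4668900-4669029 (plus) for Psmb9 and chr19:50743263-50743392 (minus) for Psmb10. Capitals mark the core of the interferon-stimulated response element, GAAANNGAAA, on either strand.
Psme1: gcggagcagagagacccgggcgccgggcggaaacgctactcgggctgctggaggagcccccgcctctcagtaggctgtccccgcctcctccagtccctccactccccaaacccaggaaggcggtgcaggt
Psme2: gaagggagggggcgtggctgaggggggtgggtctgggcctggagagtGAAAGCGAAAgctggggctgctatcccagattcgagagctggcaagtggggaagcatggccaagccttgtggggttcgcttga
Psmb8: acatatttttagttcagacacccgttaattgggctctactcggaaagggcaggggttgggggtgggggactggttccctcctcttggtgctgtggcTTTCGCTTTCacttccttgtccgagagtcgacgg
Psmb9: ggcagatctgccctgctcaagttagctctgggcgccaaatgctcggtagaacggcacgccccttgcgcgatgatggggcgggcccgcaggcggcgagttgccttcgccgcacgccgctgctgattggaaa
Psmb10: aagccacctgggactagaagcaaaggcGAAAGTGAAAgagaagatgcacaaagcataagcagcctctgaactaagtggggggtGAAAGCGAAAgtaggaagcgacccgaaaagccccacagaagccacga

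The core stood in the shown stretch of Psme2 and Psmb8 once each and of Psmb10 at 2 places, and in those of Psme1 and Psmb9 at none. Over the full windows, 250 bases before to 50 after the start, 35 of the 37 member genes had an entry. Of these 35, 6 held the core (17.1%), against 3.92% of all 33469 promoters in the table. Besides the genes shown they were Psma4, Psmb3 and Psmd7. Another motif, the antioxidant response core TGACNNNGC, known from the binding of Nfe2l1 and Nfe2l2 at proteasome genes, was in 7 of 35 (20% against 12.1% of all promoters): Psma3, Psmb2, Psmb5, Psmd1, Psmd3, Psmd9 and Psme4. The CCAAT box was in 19 of 35 (54.3% against 37.5%). Both strands were searched, and these are matches of letters in a fixed window, not binding sites. The 6 promoters with the interferon core belong to genes whose differences ran from -0.54 in Psme2 to 0.17 in Psmb3.

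PA200, the product of Psme4, is a single-chain activator that also binds the end of the core. All 3 of its probe sets were higher in all 3 animals. They target 1 transcript and are not replicates of each other. The brightest had intensities of 463, 467 and 466 contralaterally and 472, 534 and 534 ipsilaterally, without overlap, a difference of 0.14 (SE 0.15). The next went from 257, 241 and 319 to 279, 327 and 348, with overlap, a difference of 0.22 (SE 0.15). The dimmest went from 225, 263 and 241 to 313, 382 and 248, a difference of 0.33 (SE 0.16, 95% interval -0.03 to 0.70, limma adjusted p = 0.776), with 0.03 in animal 6. None of the 3 passed the unadjusted threshold.

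Psmf1 encodes PI31, named as a proteasome inhibitor for its effect on the isolated core. Its intensities were 169, 155 and 131 contralaterally and 155, 111 and 136 ipsilaterally. The difference was -0.16 (SE 0.16), negative in animals 4 and 5 and 0.05 in animal 6. As a group, the 4 genes of activators and inhibitor had a median difference of -0.21, against -0.02 over all 7117 tested genes, with members of either sign.

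**Figure D2:**
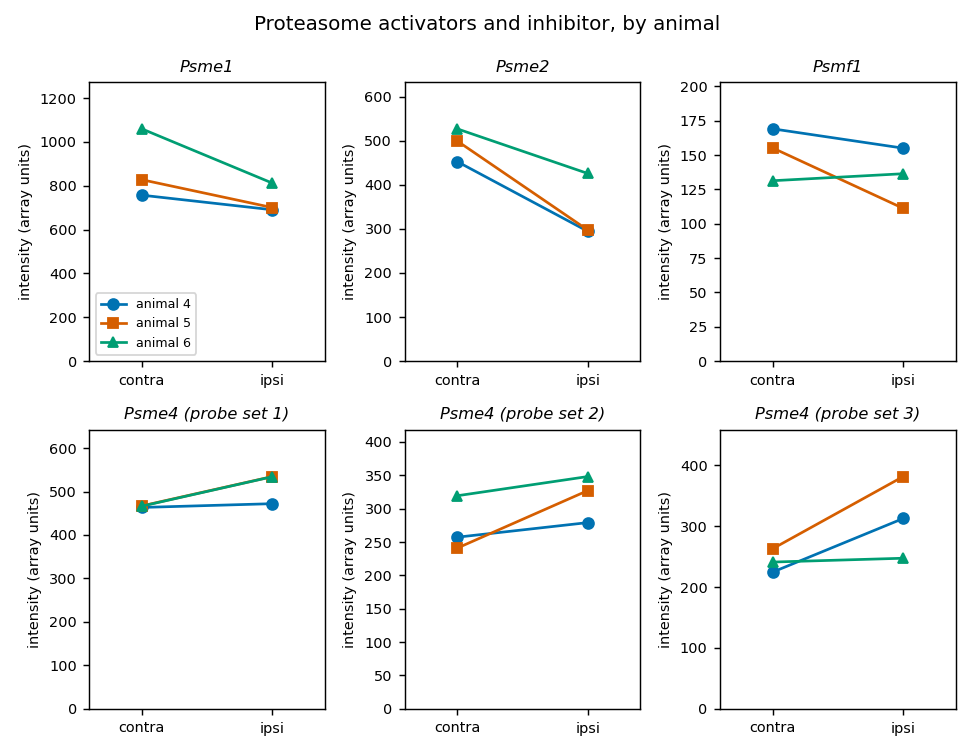
Intensities (array units, linear axis from 0) of the activators Psme1, Psme2 and Psme4 and the inhibitor Psmf1 in the contralateral (contra) and ipsilateral (ipsi) muscle, with a line for each animal. Psme2 lies at 453 to 527 contralaterally and 294 to 426 ipsilaterally, and each of the 3 probe sets of Psme4 is higher ipsilaterally in every animal.

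Immunoproteasome subunits had estimates of either sign, all within 1 SE of 0. Psmb8, which takes the place of the constitutive Psmb5, had intensities of 78.1, 102 and 124 contralaterally and 82.5, 104 and 97.3 ipsilaterally, a difference of -0.07 (SE 0.16, 95% interval -0.42 to 0.28). Psmb9, the replacement for Psmb6, had 98.5, 112 and 128 contralaterally and 105, 144 and 119 ipsilaterally, a difference of 0.10 (SE 0.16, 95% interval -0.25 to 0.45). Psmb10, the replacement for Psmb7, had 106, 149 and 152 contralaterally and 137, 162 and 119.8 ipsilaterally, a difference of 0.04 (SE 0.17, 95% interval -0.34 to 0.42). All 3 were higher ipsilaterally in animals 4 and 5 and lower in animal 6, and the groups overlapped for each. Contralateral 4, an array with a high actin ratio, had the lowest contralateral value for all 3, as for 36.2% of all tested probe sets. Ipsilateral 4, with the lowest actin ratio (1.36), had the lowest ipsilateral value for Psmb8 and Psmb9, as for 39.2% of all. The part of the ratio in these values was not tested. The sign of Psmb8 turned without animal 6 (0.049), that of Psmb9 without animal 5 (-0.0096) and that of Psmb10 without animal 4 (-0.10).

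The constitutive catalytic subunits among the members were Psmb5, with chymotrypsin-like activity, and Psmb7, with trypsin-like activity. Psmb6 is also on the array, but its probe set carries another symbol as well and was left out. Psmb5 had 1996, 1627 and 1839 contralaterally and 1707, 1461 and 1552 ipsilaterally. It was lower in all 3 animals, with differences of -0.22, -0.15 and -0.24, while the groups overlapped because animals differed in level. The difference was -0.21 (SE 0.13, 95% interval -0.49 to 0.08, limma adjusted p = 0.812). Psmb7 had 1399.8, 1628 and 1595 contralaterally and 1678, 1534 and 1405 ipsilaterally, with 0.26, -0.08 and -0.18 in the 3 animals. Its estimate of -0.0021 (SE 0.14) had a sign that turned with the scaling of the arrays. The mean difference of the 3 immunoproteasome subunits minus that of Psmb5 and Psmb7 was 0.14, 0.27 and -0.025 in animals 4, 5 and 6, values given without a test. This contrast holds Psmb9 but not its counterpart Psmb6.

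**Figure D3:**
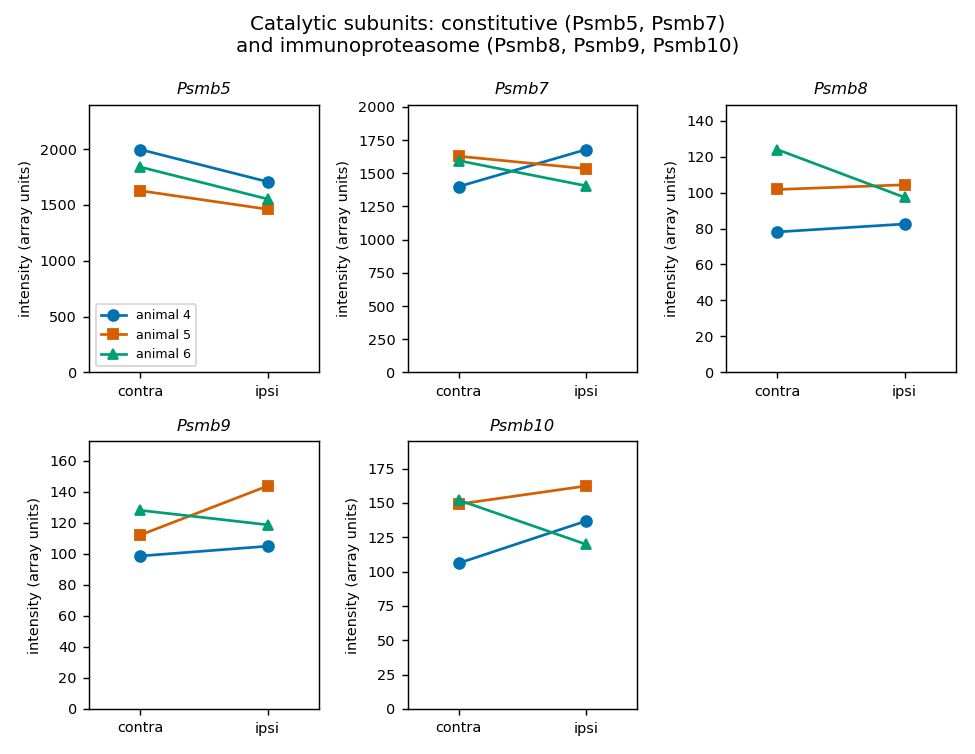
Intensities (array units, linear axis from 0) of the constitutive catalytic subunits Psmb5 and Psmb7 and the immunoproteasome subunits Psmb8, Psmb9 and Psmb10 in the contralateral (contra) and ipsilateral (ipsi) muscle, a line for each animal. Psmb5 slopes down in parallel in all 3 animals, while the lines of the other 4 subunits cross or diverge between animals.

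Of the non-catalytic beta subunits, Psmb3 was higher in all 3 animals, at 1058, 1049 and 1143 contralaterally and 1127, 1375 and 1162 ipsilaterally, a difference of 0.17 (SE 0.14). Psmb4 differed by 0.16 (SE 0.13), with -0.01, 0.18 and 0.30 in animals 4, 5 and 6. Psmb1 and Psmb2 differed by 0.09 and 0.02. The 6 constitutive beta genes had a median of 0.05 and the 3 immunoproteasome genes one of 0.04. In neither group did a member pass the unadjusted threshold.

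Among the alpha subunits, which form the outer rings and the gate, members differed in sign. Psma2 had the largest positive value, its contralateral intensities being 679, 671 and 777 and its ipsilateral ones 822, 898 and 878. Every ipsilateral array was above every contralateral one, which also held for 4.74% of all tested probe sets. Its difference was 0.28 (SE 0.14, 95% interval -0.04 to 0.61, limma adjusted p = 0.776). Psma1 was at 459, 536 and 615 contralaterally and 586, 653 and 654 ipsilaterally, a difference of 0.24 (SE 0.15), and Psma3 differed by 0.15 (SE 0.15), both higher in all 3 animals.

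Psma7 ran the other way, at 1255, 1291 and 1029 contralaterally and 1169, 883 and 899 ipsilaterally. It was lower in all 3 animals, with -0.10, -0.54 and -0.19, although ipsilateral 4 lay above contralateral 6. The difference was -0.28 (SE 0.15, 95% interval -0.61 to 0.06, limma adjusted p = 0.781). Psma4, Psma5 and Psma6 differed in sign between animals, with estimates from -0.11 to 0.11. The median of the 7 alpha genes was 0.11, and the values for animals 4, 5 and 6 were 0.079, 0.23 and 0.0039.

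In the regulatory cap the ATPases Psmc1 to Psmc5 had estimates from -0.14 to 0.09 and a median of -0.01. Psmc4 was lower in all 3 animals and without overlap, at 747, 737 and 726 contralaterally and 661, 623 and 718 ipsilaterally, a difference of -0.14 (SE 0.14). Psmc2 was higher in all 3 animals by only 0.06 (SE 0.13), with 1183, 1054 and 1173 contralaterally and 1200.0, 1150.4 and 1201 ipsilaterally. Psmc3 stood at 446, 442 and 448 contralaterally and at 540.4, 455 and 432 ipsilaterally, a difference of 0.09 (SE 0.15).

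Psmc5, picked out after its values were seen, varied most between animals of all members. It had 353, 441 and 509 contralaterally and 654, 346 and 338 ipsilaterally, so its difference was 0.86 in animal 4 but -0.34 and -0.57 in animals 5 and 6. Its estimate of -0.01 (SE 0.25) is thus a mean of opposite values. Psmc1 had the same pattern, with 0.41, -0.21 and -0.32. Animals 4, 5 and 6 had ATPase medians of 0.27, -0.21 and -0.048.

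The non-ATPase group held 13 probe sets of 12 genes, with estimates from -0.11 to 0.23 and a median of -0.01. Psmd6, a lid subunit, was higher in all 3 animals and without overlap, at 794, 643 and 817 contralaterally and 889.8, 882 and 861 ipsilaterally, a difference of 0.23 (SE 0.15, 95% interval -0.11 to 0.56). Psmd4, the ubiquitin receptor, was at 262, 360.2 and 289.5 contralaterally and 369, 253 and 244 ipsilaterally, with 0.47, -0.49 and -0.23 in animals 4, 5 and 6. Its estimate was -0.08 (SE 0.20). Psmd4 thus split the animals as Psmc5 did.

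Psmd5, Psmd9 and Psmd10 help to assemble the cap and are not part of the finished particle. Psmd9 was at 73.6, 95 and 90.1 contralaterally and 101, 102 and 94.7 ipsilaterally, a difference of 0.18 (SE 0.16), positive in all 3 animals. Psmd10 differed by 0.18 (SE 0.16), with -0.06 in animal 6, and Psmd5 by -0.02 (SE 0.15). The lid subunit Psmd11 had 2 probe sets of opposite sign, -0.09 (SE 0.15) for the brighter and 0.08 (SE 0.15) for the dimmer, and neither differed from 0 by more than its SE.

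Counted over all groups, all 3 animals had a higher ipsilateral value at 11 of the 40 probe sets, with 12.3% among all tested ones, and a lower value at 5 of the 40, with 15.1% among all. The 11 included the 3 probe sets of Psme4. Every ipsilateral array was above every contralateral one for 3 of the 40 (Psma2, Psmd6 and a probe set of Psme4), with 4.74% among all tested ones, and below for 2 of the 40 (Psme2 and Psmc4), with 5.78% among all. The share higher in all 3 animals was above that of all tested probe sets, and the other shares were near theirs. The excess was not tested, since probe sets on the same arrays are not independent.

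The share of members with a higher ipsilateral value differed between animals. Members were higher ipsilaterally at 28 of 40 probe sets in animal 4, 26 in animal 5 and 15 in animal 6, or 70%, 65% and 37.5%, while the shares over all tested probe sets were 47%, 46.2% and 51.2%. Medians over the 37 genes were 0.090, 0.062 and -0.089 for animals 4, 5 and 6. Animal 6 had the lowest of the 3 within-animal differences at 26 of the 40, against 28.0% of all tested probe sets. Ipsilateral 6 was the lowest ipsilateral array at 20 of the 40 (50%), against 31.2% of all tested probe sets. By group this share ran from 14.3% of the alpha probe sets to 84.6% (11 of 13) of the non-ATPase ones. Contralateral 4 was the lowest contralateral array at 17 of the 40 (42.5% against 36.2%), and at 4 of the 13 non-ATPase probe sets (30.8%). Ipsilateral 6 is an array with a high actin ratio, and the part of that ratio in these values was not tested. Over the 40 members, differences correlated at 0.51 between animals 5 and 6, 0.21 between 4 and 5 and -0.17 between 4 and 6. Over all tested probe sets the values were 0.42, -0.01 and -0.17. These describe probe sets of 6 arrays, which are not independent.

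**Figure D4:**
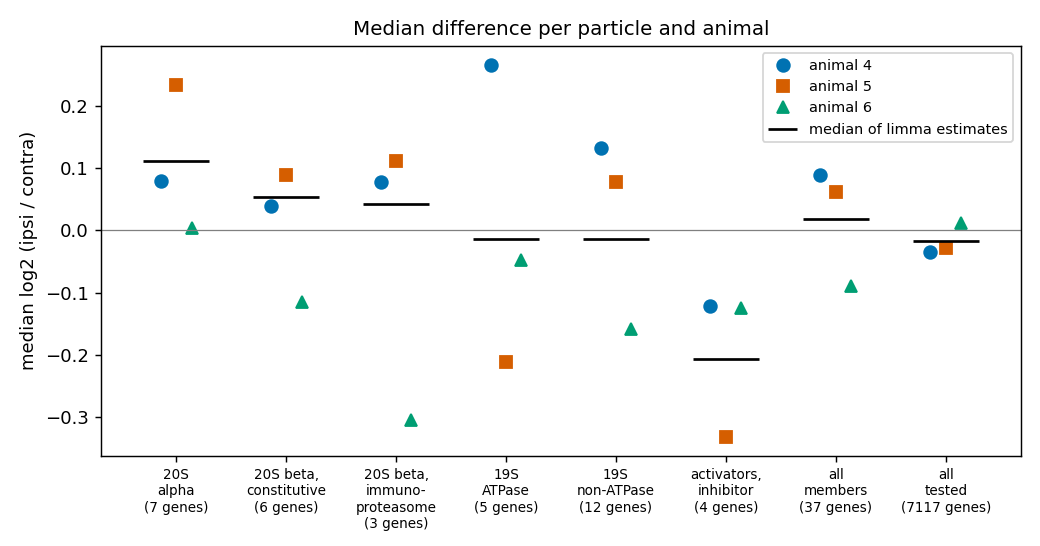
Median within-animal log2 difference over the genes of each particle (brightest probe set per gene), for animals 4, 5 and 6 (points) and for limma's estimates (bars), beside all members and all tested genes. The ATPase and non-ATPase medians are highest in animal 4. The median of the activator and inhibitor group, 4 genes of either sign, lies below 0 in every animal.

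A setting chosen after seeing the data left out the pairing, contralateral 4 and ipsilateral 6. In it Psme2 differed by -0.76 (limma unadjusted p = 0.00211, adjusted p = 0.758) and Psme1 by -0.42 (limma unadjusted p = 0.0486, adjusted p = 0.982). The share of all probe sets past the unadjusted threshold was not counted in this setting. Without animal 4, members lower at an unadjusted p under 0.05 numbered 4, namely Psma7, Psmc5, Psmd4 and Psme2, with 0 higher, where 7.82% of all probe sets were lower and 7.85% higher. In that fit 2.53% of all probe sets and none of the 40 members passed the adjusted threshold (lowest limma adjusted p of a member = 0.144). Without animal 5 there were 0 members in either direction at the unadjusted threshold, where 0.966% of all were lower and 1.38% higher. Without animal 6 there was 1, Psme2, where 1.85% were lower and 2.24% higher.

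Genes that act with the proteasome were read in lists, on the brightest probe set of each gene, and in none of the lists did a gene pass the adjusted threshold. Of 10 tested assembly chaperones and other parts of the 26S complex 0 passed the unadjusted threshold, with a median of -0.0014. The lowest p-values there were those of Ecpas, which holds cap and core together (-0.27, SE 0.16), and of the core assembly chaperone Psmg1 (-0.24, SE 0.15). Of 8 regulators of proteasome genes 0 passed (median -0.04). Ddi2, the protease that activates Nfe2l1, was at 94.6, 88.3 and 77.2 contralaterally and 81.6, 62.2 and 62.2 ipsilaterally, a difference of -0.28 (SE 0.15), lower in all 3 animals. Nfyc, a subunit of the factor that binds the CCAAT box, differed by 0.19 (SE 0.16).

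Ubiquitin and its activating and conjugating enzymes (9 tested, median -0.04) and the shuttle receptors and p97 complex (11 tested, median -0.06) had 0 genes past the unadjusted threshold. The conjugating enzyme Ube2r2, lower in all 3 animals, differed by -0.19 (SE 0.15) and the activating enzyme Uba1 differed by -0.11 (SE 0.16). The shuttle factor Ubqln1 differed by -0.23 (SE 0.16) and the autophagy receptor Sqstm1 by -0.22 (SE 0.16), the latter with 0.20 in animal 4.

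For MHC class I presentation, which uses peptides made by the immunoproteasome, 1 of 11 tested genes was higher and 1 lower at the unadjusted threshold (median -0.09). Pdia3, a chaperone of the peptide-loading complex and of glycoprotein folding in general, went from 418 ± 87.6 to 649 ± 104, a difference of 0.63 (SE 0.15, limma adjusted p = 0.398). The class I gene RT1-CE5 went from 74.9 ± 11.1 to 50.7 ± 11.3, a difference of -0.46 (SE 0.17, limma adjusted p = 0.73). Tap1 and Tap2, peptide transporters beside Psmb8 and Psmb9 in the genome, were too dim to be tested. Of 12 tested interferon response genes 0 passed, with a median of -0.01. Gbp2 differed by 0.33 (SE 0.18) and Irf7 by 0.35 (SE 0.26), the latter with 1.26 in animal 5 alone. Irf9, near Psme2, differed by -0.07 (SE 0.16).

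Leukocytes express PA28 and immunoproteasome subunits strongly, so their markers are given beside these members. In whole muscle, fewer cells of a type and less RNA per cell cannot be told apart. Of 18 tested macrophage and other leukocyte markers 3 were lower and 0 higher at the unadjusted threshold, with a median of -0.29. The summed intensity of the 19 on the array was 7915 to 9750.0 contralaterally and 6057 to 8121 ipsilaterally, and none was at 0. In animals 4, 5 and 6 the leukocyte median was 0.020, -0.29 and -0.46. Psme1 was at -0.13, -0.24 and -0.38 and the immunoproteasome median at 0.077, 0.11 and -0.30, each lowest in animal 6 like the leukocyte median. Psme2 was at -0.60, -0.72 and -0.30 and did not follow that order. The brightest markers of the leukocyte list were Cd74 (-0.40, SE 0.16) and Lyz2 (-0.29, SE 0.16). Of 12 T and B cell markers on the array 4 were bright enough to be tested, with 0 past the threshold. Their sum was 369 to 453 contralaterally and 338 to 377 ipsilaterally. The part of these cells in the values of Psme1, Psme2 and the immunoproteasome subunits was not tested.

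Other marker lists had medians mostly above 0. Medians were 0.20 for 8 endothelial, 0.27 for 9 fibroblast and tendon, 0.52 for 3 adipocyte, 0.30 for 3 Schwann cell and 1.31 for 3 spermatid markers, and -0.19 for 11 muscle fibre markers. At the unadjusted threshold 2 endothelial, 4 fibroblast, 3 adipocyte, 1 Schwann cell, 3 spermatid and 1 muscle fibre marker were higher, and 1 Schwann cell and 2 muscle fibre markers were lower. Of the brightest muscle fibre markers, Actn3 differed by -0.48 (SE 0.13, limma adjusted p = 0.501) and Ckm by -0.24 (SE 0.12, limma adjusted p = 0.776). Both were lower in all 3 animals. The brightest fibroblast markers, Col3a1 (-0.05, SE 0.13) and Dcn (-0.21, SE 0.12), lay below 0, unlike the median of their list. The summed intensity of that list overlapped, at 10018 to 11170 contralaterally and 10248 to 11799 ipsilaterally. The part of all these lists in the member values was not tested.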

How the data were processed

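Total RNA of 6 tibialis anterior muscles was measured on 1 array each. The authors deposited linear intensities, 1 per probe set, which were scaled array by array: the mean without the lowest and highest 2% is 150 on each. Their software is not given in the sources used. The log2 of intensity plus 15.8, the 20th percentile of all deposited values, was analysed. Array medians lay within 0.115 (log2) of each other, under the limit of 0.2, so no further normalization was applied. The 57 control probe sets were left out, and the 9519 whose mean log2 value exceeded the 40th percentile (5.86) were tested with limma 3.58.1 in R 4.3.3 (lmFit; eBayes with intensity trend), with the animal as block and Benjamini-Hochberg adjustment over all of them. The fit had 2 residual and 7.47 prior degrees of freedom. It was tested on simulated data.

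The pairing comes from the design, both muscles being of 1 animal; deviations from group means correlated within animals at -0.04, 0.07 and 0.13. Single symbols came from a platform annotation, which can be old, for 12789 probe sets, of which 12754 were found in RefSeq's GRCr8 gene table. Promoters are RefSeq's in GRCr8; array builds play no part. The members and lists were chosen with earlier results of these data known. Named were the catalytic subunits, activators, inhibitor and Psmd4, the 3 members per group and 2 genes per pathway list with the lowest p, the 2 brightest tested markers of lists discussed, and genes whose probe sets disagree. Outside this rule, values were also given for Psma3, Psmb1, Psmb2, Psmc1, Psmc5, Psmd5 and Irf9. Of the genes set for naming, Psmb6, Psme3 and Psmd14 had no probe set with a single symbol. Alternatives covered the block, pseudocount, normalization, filter, variance trend, choice of probe set and each animal left out.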

Additional observations from a re-analysis of the deposited data

How the results depend on the processing

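The counts of called probe sets depended on the animals. Without each replicate in turn, probe sets past the adjusted threshold numbered 0 to 241, the latter without animal 4. Lower members at an unadjusted p under 0.05 numbered 0 to 4, where 0.966% to 7.82% of all probe sets were lower. Psme2 stayed below 0 in every alternative, from -0.76 to -0.45, and lost the unadjusted threshold only without animal 5. With no replicate block and without contralateral 4 and ipsilateral 6, 1 probe set of all passed the adjusted threshold. Without the filter on dim probe sets Psma2 passed the unadjusted threshold (0.28, limma unadjusted p = 0.0485, adjusted p = 0.879). The fit without the replicate block, leaving the samples unpaired, called 0 probe sets and changed no call of a named member. Particle medians depended on the animals too. With each animal left out in turn, the median ranged from 0.11 to 0.18 for alpha subunits, 0.0051 to 0.10 for constitutive beta, -0.098 to 0.20 for immunoproteasome, -0.13 to 0.098 for ATPase, -0.043 to 0.089 for non-ATPase and -0.25 to -0.14 for activators and inhibitor, and from -0.025 to 0.10 over all members. Without contralateral 4 and ipsilateral 6 the sign also turned for immunoproteasome (-0.013), ATPase (0.0077) and non-ATPase (0.074) medians. Signs of single probe sets near 0 turned as well. Psmb7 was 0.010 with quantile normalization and 0.0076 with centred arrays. Psmb10 (-0.013) and the brighter probe set of Psmd11 (0.20) turned without contralateral 4 and ipsilateral 6. With each animal left out in turn, the range was -0.13 to 0.087 for Psmb7, -0.14 to 0.049 for Psmb8, -0.0096 to 0.20 for Psmb9, -0.098 to 0.22 for Psmb10, -0.0042 to 0.15 for Psmc3, -0.36 to 0.12 for Psmd4 and -0.14 to 0.010 for the brighter probe set of Psmd11. A fit without 1 animal has 1 residual degree of freedom. With 3 animals, differences of about 2 SE missed even the unadjusted threshold, as did Psma2 (0.28, SE 0.14), and Psme2 (-0.54, SE 0.16) missed the adjusted one.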
